A study of Mus with 6 samples.

Results

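The miR-106b/93/25 cluster is a group of 3 microRNA (miRNA) hairpins that lie within the span of Mcm7, a gene for a subunit of the helicase that unwinds DNA at replication. Its members were chosen by name, as every mature miRNA in the count tables that begins with miR-106b-, miR-93- or miR-25-. This gave 6 names, both arms of each hairpin, out of 929 known mature miRNAs listed in all 6 tables, and all 6 names passed the filter on low counts. Small RNA came from adipocytes of wild-type (WT) C57BL/6 mice, with 3 control libraries and 3 libraries of a group treated with chronic intermittent hypoxia (CIH), repeated falls in oxygen as in sleep apnoea. Values of a group are given in the order of the library numbers, 1, 2 and 3. The labels used here do not give age, fat depot or hypoxia schedule, nor whether mice or cultured cells were exposed, and nothing says that libraries came from separate animals or cultures.

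A hairpin is cut into a 5p and a 3p strand, and usually one of these, the guide, is kept in the Argonaute complex while the other is degraded. Guides find target mRNAs mainly through the seed, a short stretch near their 5′ end. miR-106b-5p and miR-93-5p share their seed with miR-17-5p and miR-20a-5p, and miR-25-3p shares its seed with miR-92a-3p and miR-32-5p, so this cluster and the miR-17-92 cluster are paralogues. The host gene and the cluster are known E2F targets, with the cell cycle inhibitor p21 and the pro-apoptotic protein Bim among their known mRNA targets. In fat, miR-106b and miR-93 were reported to hold back brown adipocyte differentiation, and miR-93 to limit adipogenesis through Sirt7 and Tbx3.

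On GRCm38 the precursors lie on chromosome 5, Mir25 at 138165321 to 138165404, Mir93 at 138165523 to 138165610 and Mir106b at 138165737 to 138165818. They fill 498 bp inside the span of Mcm7 (138164583 to 138172111). The positions are those of a RefSeq table of GRCm38.p6 without exon bounds, and mature sequences were not used here.

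Total counts ran from 6291101 to 11264151 reads per library. Levels are CPM, the count of a name scaled to 1000000 reads of its library, and 3 counts, taken as the floor, equal 0.266 to 0.477 CPM. The libraries numbered 3 stand apart from the other 4 in both groups and list other names in their tables (1116 known names against 1024), so the comparisons of CIH with control are also given for libraries 1 and 2 of each group, and for the pair of libraries numbered 3. The labels name no batch. Among miRNAs that are abundant in fat, the 7 on the list summed to 167243 to 636997 CPM per library. Leukocyte miRNAs were low, at 0.266 to 4.29 CPM in sum. Erythroid ones summed to 153.9, 63.7 and 54.8 CPM in the controls and to 135.8, 60.3 and 21.0 CPM under CIH. That is not low beside miR-106b-5p (56.2 to 198 CPM). The erythroid names differed in the libraries numbered 3, though. miR-451a stood at 8.35 CPM in control library 3 and 3.20 CPM in CIH library 3. Most of the erythroid sum there was miR-486a-5p, at 46.5 and 17.7 CPM.

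Scaled by library totals, the cluster as a whole had similar levels in 5 of the 6 libraries. In the control libraries its 6 names summed to 1650, 1499 and 1809 CPM, and under CIH to 1501, 1378 and 2850 CPM. By this scaling CIH library 3 alone was high, and the ranges of the groups overlapped. The control mean was 1653 ± 155 CPM and the CIH mean 1910 ± 817 CPM (SD, n = 3 each). On the log2 scale CIH minus control was 0.13, which is smaller than the spread between libraries (pooled SD 0.42), and without CIH library 3 it was -0.20. With TMM library sizes, which correct for a few very abundant miRNAs, the difference was -0.04. By TMM control library 3 was high too, as miR-25-3p alone stood at 1551 CPM there and at 1822 CPM in CIH library 3. In the others miR-25-3p stood at 348 to 490 CPM by TMM. In such bulk libraries fewer cells of a type and less RNA per cell cannot be told apart.

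The names within that sum were less even. mmu-miR-93-5p (the species prefix is left out where names recur), the guide of the middle hairpin, had control levels of 772, 782 and 209 CPM and CIH levels of 603, 695 and 352 CPM. It was the highest name of the cluster in the 4 libraries numbered 1 and 2 and was low in both libraries numbered 3. mmu-miR-25-3p, the guide of the last hairpin, had control levels of 532, 384 and 986 CPM and CIH levels of 562, 401 and 2021 CPM. It led the cluster in both libraries numbered 3.

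mmu-miR-106b-5p, the strand that shares the miR-17 seed, had control levels of 198, 162 and 56.2 CPM and CIH levels of 119, 132 and 119 CPM. Its CIH libraries lay close together, inside the range of the controls. Its other arm, mmu-miR-106b-3p, had control levels of 140, 166 and 554 CPM and CIH levels of 209, 144 and 351 CPM. Like miR-25-3p it was high in the libraries numbered 3. It outnumbered the 5p arm in every library but control 1, by a small margin in control 2 and CIH 2.

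The passenger strands of the other hairpins were rare. miR-93-3p ranged from 1.69 to 5.09 CPM, with 14 to 32 counts per library. miR-25-5p had 22, 24 and 16 counts in the controls (3.50, 2.47 and 1.94 CPM) and 31, 37 and 42 counts under CIH (4.23, 3.68 and 3.73 CPM). It alone of the 6 names had CPM ranges that did not overlap, with CIH higher. Over all 456 tested miRNAs, 11.2% had ranges that did not overlap.

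**Figure D1:**
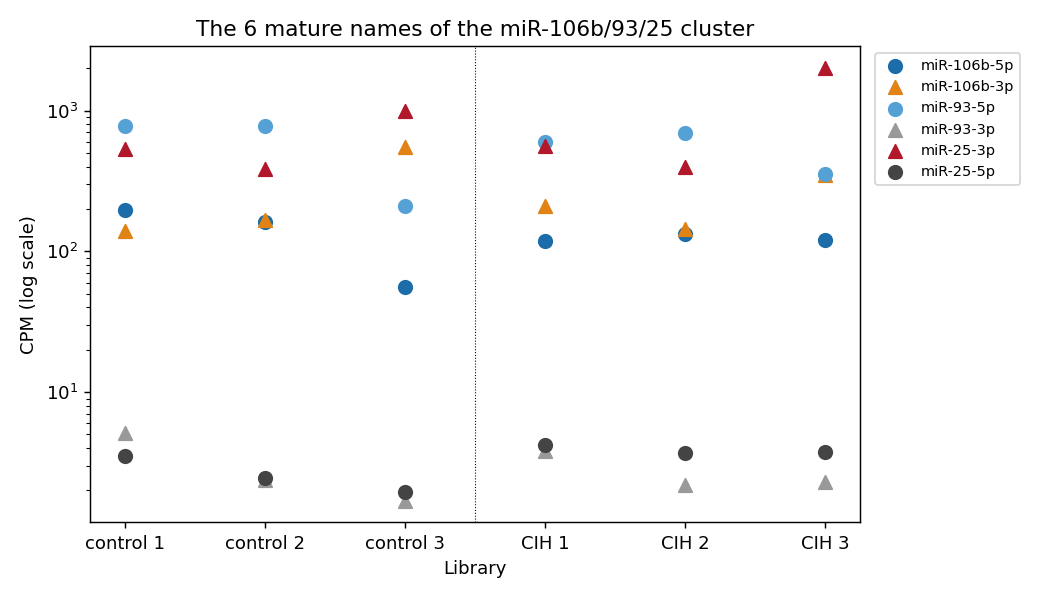
Level of each of the 6 mature names (CPM, logarithmic axis) in every library, circles for 5p and triangles for 3p strands, with 1 point per library and controls left of the dotted line. In the libraries numbered 3 miR-25-3p (986 and 2021 CPM) stood above miR-93-5p (209 and 352 CPM), while in the other 4 miR-93-5p was the highest name.

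CIH was compared with control for each name by the quasi-likelihood test of edgeR, fitted over the whole table and adjusted by the Benjamini-Hochberg method. Of the 6 names 0 were called in the 6 libraries, where 0% of all 456 miRNAs were called. At an unadjusted p below 0.05 the number of cluster names was also 0, with DESeq2 and limma-voom as well. The median log2 difference of the 6 names was -0.14, beside 0.04 over all miRNAs tested, with 2 names higher and 4 lower.

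miR-93-5p differed by -0.09 on the log2 scale (SE 0.50, 95% interval -1.25 to 1.07, adjusted p = 0.988 by edgeR). For miR-106b-5p the log2 difference was -0.18 (95% interval -1.21 to 0.84), and for miR-25-3p it was 0.23 (95% interval -1.63 to 2.08). These intervals include changes of 2-fold in either direction for miR-93-5p and miR-25-3p, so the 6 libraries do not show that these names stayed level. For miR-106b-3p the value was -0.80 (95% interval -2.70 to 1.09), which turned to 0.72 without control library 3. miR-25-5p, the name with ranges apart, had a log2 difference of 0.42 (SE 0.45, adjusted p = 0.934 by edgeR).

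Within the libraries numbered 1 and 2 the spread was smaller, and again 0 of the 6 names were called, where 9.37% of 459 miRNAs were (4.14% higher and 5.23% lower in CIH). miR-106b-5p stood at -0.35 (SE 0.24, 95% interval -0.85 to 0.14, adjusted p = 0.452 by edgeR). CPM ranges did not overlap for 3 of the 6 names (miR-106b-5p and miR-93-5p lower, miR-25-5p higher in CIH), where they did not for 49.7% of all miRNAs tested. miR-93-5p stood at -0.10 (95% interval -0.54 to 0.34) and miR-25-3p at 0.21 (95% interval -0.23 to 0.65). miR-106b-3p stood at 0.32 (95% interval -0.16 to 0.81), opposite in sign to its 5p arm. For miR-93-5p, miR-25-3p and both arms of miR-106b the intervals leave out a 2-fold change in either direction. They rest on 2 libraries a group, a restriction made after the libraries numbered 3 were seen to stand apart.

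In the pair numbered 3, with 1 library a group, miR-93-5p and miR-93-3p changed direction with the scaling and the other 4 names kept theirs. By library totals, CIH library 3 held 2.13 times the miR-106b-5p, 1.68 times the miR-93-5p and 2.05 times the miR-25-3p of control library 3, but 0.633 times the miR-106b-3p. The median of all 456 miRNAs was also higher there, by 0.74 on the log2 scale. After TMM scaling, which brought that median to 0.05, the log2 differences were 0.28 for miR-106b-5p, -0.05 for miR-93-5p, 0.23 for miR-25-3p and -1.46 for miR-106b-3p. Only miR-106b-3p among the 4 abundant names was lower in CIH under both scalings in this pair. An interaction term, the contrast in this pair minus that in the other libraries, was -1.79 for miR-106b-3p (SE 0.39, adjusted p = 0.000548 by edgeR) and passed, as did 30.3% of all 456 miRNAs (13.6% in its direction). The other 5 names did not pass. The fit assumes that the lone library of each group numbered 3 varies like the libraries numbered 1 and 2, which that pair cannot check. With total counts as the scaling the value for miR-106b-3p was -0.86 and did not pass (adjusted p = 0.143 by edgeR).

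**Figure D2:**
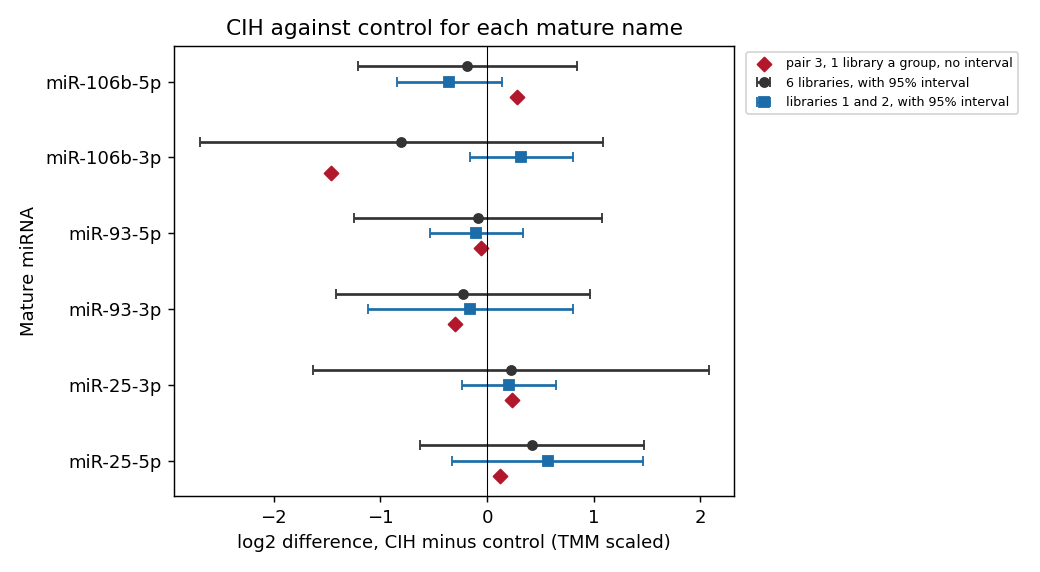
Log2 difference, CIH minus control, for each name after TMM scaling, in all 6 libraries and in libraries 1 and 2 of each group (points with 95% intervals), with diamonds for the pair numbered 3 (1 library a group). All intervals include 0, and miR-106b-3p is the name whose pair numbered 3 lies farthest from libraries 1 and 2, at -1.46 against 0.32. For miR-106b-5p the diamond (0.28) also lies outside the interval of libraries 1 and 2.

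For the 2 most abundant names, the share of the cluster's reads differed more between the libraries numbered 3 and the others than between the groups. miR-93-5p made up 46.8% and 52.2% of the cluster reads in control 1 and control 2, and 40.2% and 50.4% in CIH 1 and CIH 2. In control 3 and CIH 3 it made up 11.6% and 12.4%. miR-25-3p made up 25.6% to 37.4% in the former 4 libraries, and 54.5% and 70.9% in the latter. For miR-106b-3p the libraries numbered 3 differed most from each other, with 30.6% in control and 12.3% in CIH, against 8.48% to 13.9% in the other 4. Wilson 95% intervals on these shares, which cover counting error only, were narrow, such as 11.1% to 12.1% for miR-93-5p in control library 3.

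The balance lay with the 3p strands in the libraries numbered 3. The 5p names of the cluster summed to 973, 947 and 267 CPM in the controls and to 726, 831 and 476 CPM under CIH. The 3p names summed to 677, 552 and 1542 CPM in the controls and to 775, 547 and 2374 CPM under CIH. No library numbered 3 overlapped the other 4 in either sum. Of all 456 miRNAs taken singly, 12.1% lay above and 32.5% below the other 4 in both libraries numbered 3.

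**Figure D3:**
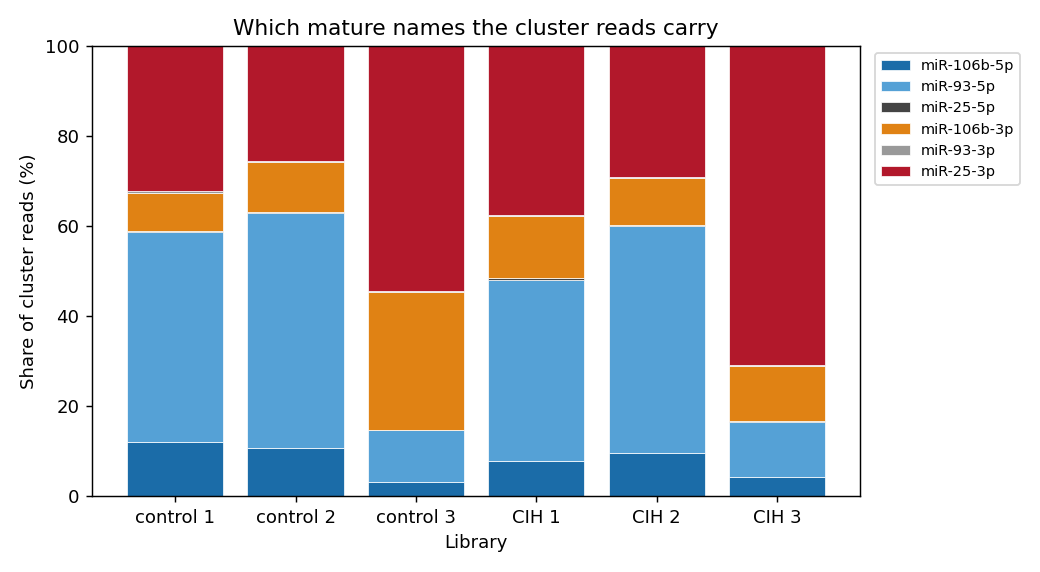
Share of the cluster's reads (%) carried by each name in every library, 1 bar per library, with 5p names in blue and dark grey at the bottom and 3p names above. miR-25-3p makes up 54.5% and 70.9% of the bars of the libraries numbered 3 and at most 37.4% of the others.

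With group in the model, miR-25-3p was 3.94-fold higher in the libraries numbered 3 (log2 difference 1.98, SE 0.27, adjusted p = 0.00961 by edgeR), the eighth smallest p-value of the table. miR-106b-3p was 3.73-fold higher (log2 difference 1.90, SE 0.45, adjusted p = 0.0267 by edgeR), an average over groups that differed in size. By TMM it stood at 872 CPM in control library 3 against 117 and 151 CPM in the other controls. In CIH library 3 it stood at 316 CPM, against 182 and 154 CPM in the other CIH libraries. miR-93-5p missed the threshold at -1.02 (SE 0.31, adjusted p = 0.0524 by edgeR) but passed with DESeq2 (adjusted p = 0.0404) and limma-voom (adjusted p = 0.0449), and miR-106b-5p stood at -0.49 (SE 0.33). So 2 of 6 names were called, where 25% of all 456 miRNAs were (11.4% higher and 13.6% lower). Scaling by total counts ended the call of miR-106b-3p (log2 difference 1.44, adjusted p = 0.0535 by edgeR). The count ran from 0 to 4 when single libraries were left out. It was 0 without control library 1 or CIH library 2, 1 without control library 2 or CIH library 1, 3 without control library 3, and 4 without CIH library 3. miR-25-3p kept a log2 difference of 1.92 to 2.05 in all of these fits. The marker sums of other cell types differed too, with epithelial miRNAs at 76.3 and 18.6 CPM in control library 3 and CIH library 3 against 126 to 409 CPM in the others. Stromal ones stood at 6596 and 67005 CPM in the libraries numbered 3 against 11403 to 16691 CPM. Their part in these differences was not tested.

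The balance of the 2 arms of miR-106b does not depend on scaling. Per read of the 3p arm there were 1.41, 0.975 and 0.101 reads of the 5p arm in the controls and 0.569, 0.917 and 0.341 under CIH. The lowest values are those of the libraries numbered 3, and the groups overlapped. On the log2 scale the ratio averaged -0.95 ± 2.06 in control and -0.83 ± 0.71 in CIH (SD, n = 3 each), a difference of 0.12 (two-sided exact permutation p = 1, with 0.1 the smallest possible). Within the libraries numbered 1 and 2 alone both CIH ratios lay below both controls, with a mean difference of -0.70 (exact permutation p = 0.333, the smallest that 2 against 2 libraries allow). Without control library 3 the difference was -1.06.

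For miR-93 there were 123 to 331 reads of the 5p guide per read of miR-93-3p. The ratios were 152, 331 and 123 in the controls and 158, 317 and 153 under CIH, highest in the libraries numbered 2 in both groups. CIH libraries 1 and 3 rest on 28 and 26 counts of miR-93-3p, too few to order them. For miR-25 the 5p passenger made up 0.00644 to 0.0092 reads per read of the guide in the libraries numbered 1 and 2, and 0.00197 and 0.00184 in control library 3 and CIH library 3.

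The arm shift was set beside all 123 hairpins with both arms at a mean of at least 1 CPM. The log2 ratio of 5p to 3p in the libraries numbered 3 minus that in the others was -2.31 for miR-106b, -1.94 for miR-25 and -0.72 for miR-93. Over all hairpins the median was 0.08 and the middle range ran from -0.86 to 1.03, with 59 of 123 below 0. miR-106b ranked 9th and miR-25 ranked 13th from the lowest. All 3 hairpins of the cluster had less of the 5p arm relative to the 3p arm in the libraries numbered 3, while hairpins as a whole had no common direction. For miR-93 the shift lay inside the middle range, and it was smaller than the range of its ratio within the libraries numbered 1 and 2 (1.12).

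**Figure D4:**
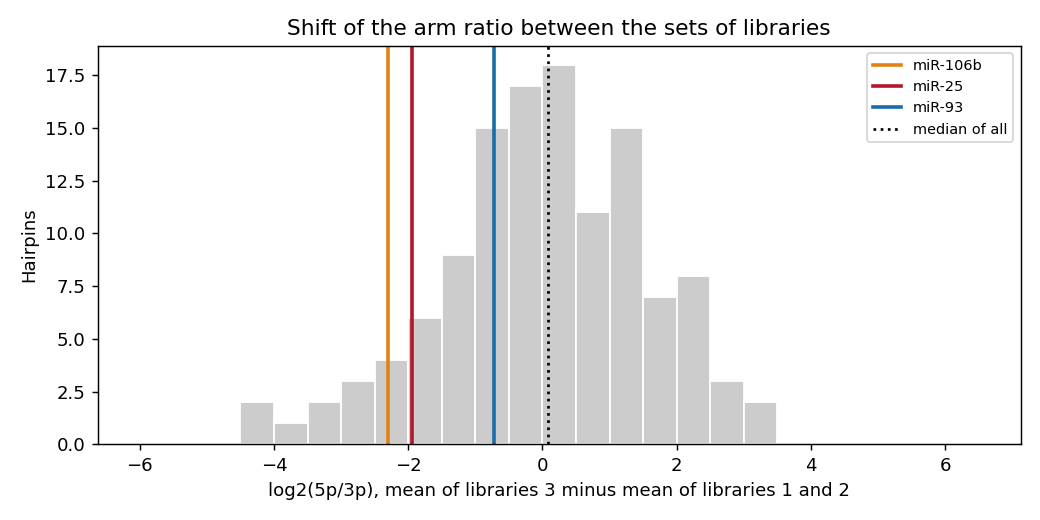
Number of hairpins by the shift of their log2 5p to 3p ratio, libraries numbered 3 minus libraries numbered 1 and 2, over 123 hairpins, with coloured lines for the cluster. All 3 lines lie left of the dotted median (0.08), at -2.31, -1.94 and -0.72.

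Likeness between miRNAs was measured as the SD of their log2 ratio over the 6 libraries, which is small where 2 profiles run in parallel, among miRNAs with a mean of at least 50 CPM. The profiles of the cluster fell into 2 kinds by strand. miR-106b-5p and miR-93-5p had an SD of 0.32, rank 8 of 165 as seen from miR-106b-5p and rank 7 from miR-93-5p, where the median over all others was 0.77 and 0.92. miR-106b-3p and miR-25-3p had an SD of 0.59, ranks 17 and 18. Across strands the SD was 1.32 for miR-106b-5p with miR-25-3p, 1.38 for both arms of miR-106b and 1.58 for miR-93-5p with miR-25-3p, all above those medians and those seen from miR-106b-3p (1.28) and miR-25-3p (1.20). In the libraries numbered 1 and 2 alone these SDs were 0.43, 0.54 and 0.40.

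The 3 miRNAs outside the cluster closest to miR-93-5p were miR-148b-5p (SD 0.11), miR-194-5p (0.14) and miR-19b-3p (0.22), the last a member of miR-17-92. Closest to miR-106b-5p were miR-29b-3p (0.16), miR-101a-3p (0.21) and miR-7a-5p (0.23). For miR-25-3p they were miR-455-5p (0.22), miR-361-3p (0.24) and let-7i-5p (0.24), and for miR-106b-3p they were miR-28a-3p (0.20), miR-148b-3p (0.26) and miR-10b-5p (0.28). These are descriptions over 6 libraries that share the split by number.

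The paralogous miR-17-92 cluster, driven from its own gene on chromosome 14, is given beside it as the source of the same seeds. In the 6 libraries all 9 of its 12 listed names that could be tested were higher in CIH, with a median log2 difference of 0.43, and 0 were called. Within the libraries numbered 1 and 2, which are part of those 6, all 9 were higher in the fit. The median was 0.69, beside 0.05 for the miR-106b/93/25 names and -0.03 over all miRNAs, and 2 rose, where 4.14% of all 459 miRNAs did. The direction was not uniform in single pairs. By TMM miR-17-3p (-0.20), miR-19a-3p (-0.52) and miR-19b-3p (-0.33) were lower in CIH in pair 1, while all 9 were higher in pair 2. In the pair numbered 3, 6 of the 9 were lower in CIH after TMM scaling (median -0.15, beside 0.05 over all miRNAs). By library totals 1 of the 9 was lower in that pair (median 0.62, beside 0.74 over all miRNAs). Its names there summed to 652 CPM without and 574 CPM with CIH. miR-92a-3p, the guide with the seed of miR-25-3p, had control levels of 332, 287 and 400.2 CPM and CIH levels of 755, 485 and 172 CPM, so the pair numbered 3 had the opposite order. Among libraries 1 and 2 it rose, with a log2 difference of 1.13 (SE 0.22, edgeR adjusted p = 0.000694). The other that rose there was its passenger miR-92a-1-5p, at 1.45 (SE 0.47, adjusted p = 0.0484 by edgeR), at 1.75 CPM in both of these controls against 5.32 and 3.58 CPM. miR-17-5p and miR-20a-5p, with the seed of miR-106b-5p and miR-93-5p, stood at 0.69 (SE 0.24, adjusted p = 0.0705 by edgeR) and 0.62 (SE 0.23, adjusted p = 0.0886 by edgeR). The difference between the 2 clusters was not tested.

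The part of each seed family that came from the miR-106b/93/25 cluster also varied between libraries. Of the reads of the miR-17 family (miR-106b-5p, miR-93-5p, miR-17-5p, miR-20a-5p and miR-20b-5p), miR-106b-5p and miR-93-5p made up 69.7%, 70.7% and 61.2% in the controls. Under CIH they made up 57.9%, 57.7% and 64.3%. The CIH share was the lower one in pairs 1 and 2 and the higher one in pair 3, and the groups overlapped (67.2% ± 5.24 and 59.9% ± 3.76, SD, n = 3 each). The family as a whole had 1390, 1336 and 434 CPM in the controls and 1248, 1433 and 734 CPM under CIH.

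Of the reads of the miR-25 family (miR-25-3p, miR-92a-3p, miR-92b-3p, miR-32-5p and miR-363-3p), miR-25-3p made up 56.5%, 51.2% and 68.6% in the controls. Under CIH it made up 40.5%, 41.6% and 90.7%. Again the pairs numbered 1 and 2 had the lower share in CIH and the pair numbered 3 the higher one. The Wilson interval of CIH library 3 was 90.3% to 91.0%.

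**Figure D5:**
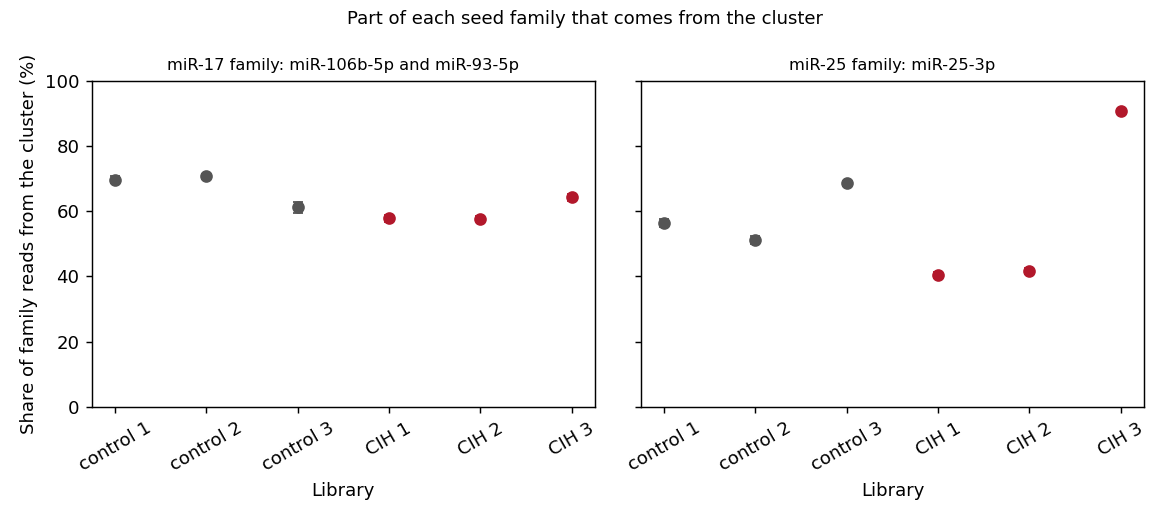
Share (%) of the reads of the miR-17 family (left) and of the miR-25 family (right) that came from the miR-106b/93/25 cluster, 1 point per library with its Wilson 95% interval, controls in grey and CIH in red. CIH points of libraries 1 and 2 lie below the controls of the same numbers in both families, and that of library 3 lies above.

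The third paralogous cluster, miR-106a-363 on chromosome X, had 2 measured names. The measured names were miR-20b-5p at 0 to 0.477 CPM and miR-363-3p at 0 to 3.50 CPM. miR-106a-5p, which is close in sequence to miR-17-5p and miR-106b-5p, was listed for only 2 of the 6 libraries. It was not analysed here, and the shares of the miR-17 family leave it out. How reads that match several names were assigned is not given in the sources used here, so levels of close relatives are uncertain. Another miRNA pair within a gene of dividing cells, miR-15b and miR-16-2 in Smc4 (a condensin subunit), had 3 tested names, of which 0 were called in either comparison of CIH with control. miR-15b-5p had 44.0, 38.7 and 15.9 CPM in the controls and 35.7, 39.8 and 117 CPM under CIH. Scaled by library totals it was high in CIH library 3 alone, as was the summed miR-106b/93/25 cluster. That likeness depended on the scaling. By TMM miR-15b-5p was again high in CIH library 3 alone, while the cluster was high in control library 3 too.

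Among 6 miRNAs reported to hold back brown adipocytes, 5 could be tested. miR-106b-5p, miR-93-5p, miR-27b-3p and miR-34a-5p were not called in either comparison of CIH with control. miR-155-5p rose in the libraries numbered 1 and 2 (log2 difference 0.76, SE 0.23, adjusted p = 0.0340 by edgeR), where 4.14% of all 459 miRNAs rose. In the pair numbered 3, 4 of the 5 were higher in CIH after TMM scaling and all 5 by library totals. The median of all 456 miRNAs in that pair was 0.05 by TMM and 0.74 by library totals.

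Of the 8 listed as favouring brown adipocytes, 0 were called in the 6 libraries and 2 fell in the libraries numbered 1 and 2, where 5.23% of all 459 miRNAs fell. These were miR-193b-3p (-1.32) and miR-203-3p (-1.24, adjusted p = 0.00751 by edgeR). In the pair numbered 3, 6 of the 8 were lower in CIH after TMM scaling and 4 of the 8 by library totals, beside medians of 0.05 and 0.74 over all miRNAs. miR-203-3p is also on the list of epithelial markers, of which 5 of 5 tested names were lower in CIH in the libraries numbered 1 and 2, with 2 called. The summed epithelial level in CIH was 0.415, 0.376 and 0.243 times control in pairs 1, 2 and 3. The names did not all follow the sum. By TMM miR-205-5p, miR-203-3p and miR-200c-3p were lower in pairs 1 and 2. miR-200a-3p and miR-200b-3p were lower in pair 1 but higher in pair 2 (0.09 and 0.41). In the pair numbered 3, 3 of the 5 names were higher in CIH by TMM and 4 by library totals. miR-193b-3p is also on the list of miRNAs abundant in fat, of which 7 of 7 were lower in CIH in the libraries numbered 1 and 2, with 2 called. The part of these cell markers in the result was not tested.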

How the data were processed

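The deposited tables, 1 per library, hold raw counts for each mature miRNA. FPKM stands in 3 headers, yet those columns are whole numbers with unequal totals and were read as counts. Among the tools listed per the submitters' processing notes are DESeq 1.8.3 and featureCounts 1.5.0-p3, with GRCm38 as the build. How reads were trimmed, aligned and assigned when they matched several names is not given in the sources used here.

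Counts of the 929 known names shared by all tables (at least 99.97% of each library) were fitted with edgeR 4.0.16 in R 4.3.3 (filterByExpr, TMM, robust quasi-likelihood F test, threshold 0.05), and intervals use its SE and total degrees of freedom. DESeq2 1.42.0 and limma 3.58.1 (voom) were alternatives. The fits were checked on simulated counts with a single dispersion for all names and libraries. That check does not cover the larger spread between the libraries numbered 3 and the others. CPM uses the table total. Ratios have 0.5 counts added only on the log2 scale. Python 3.11.15, pandas 2.3.3, numpy 2.4.6, scipy 1.17.1 and matplotlib 3.10.9 served for the rest. TMM factors were 0.635 for control library 3, 1.11 for CIH library 3 and 0.937 to 1.20 for the others.

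Members and lists were chosen with earlier results of these data known. Named miRNAs are all members, the listed relatives and the 3 nearest by profile to each member of at least 50 CPM. Libraries of the same number deviated together (r = 0.28, 0.28 and 0.37 over 471 miRNAs), and a blocked fit took the numbers as pairs. Control 1 with CIH 2 gave 0.39 and control 2 with CIH 1 gave 0.18, so the correlations set the pair numbered 3 apart but do not tell pairs 1 and 2 from each other. Since separate animals or cultures are not named, p-values reflect library-to-library spread only, part of which may be technical. Intervals on shares cover counting error only.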

Additional observations from a re-analysis of the deposited data

Results flagged for a closer look

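For miR-106b-3p, CIH minus control in the pair numbered 3 minus the same contrast in the libraries numbered 1 and 2 was -1.79 on the log2 scale, and this interaction term passed the threshold (adjusted p = 0.000548, edgeR). The pair numbered 3 has 1 library a group and no spread of its own, and the fit assumes that these libraries vary like the others. With total counts the term was -0.86 and did not pass (adjusted p = 0.143, edgeR), and miR-106b-5p passed instead (1.61, adjusted p = 0.0125, edgeR).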

How the results depend on the processing

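For CIH against control, the count of called names was 0 with edgeR and under all alternatives run, in the 6 libraries and in the libraries numbered 1 and 2: other scalings, DESeq2, limma-voom, other filters, a threshold of 0.1, leaving out the 10 most abundant miRNAs or single libraries. With the replicate number as a block it was also 0 in both, so the pairing changed no call. For the arm ratio of miR-106b the block gives the same difference of 0.12 by construction (exact p = 1 by sign flips within pairs, with 0.25 the smallest possible). Leaving out single libraries moved the log2 differences of the 6-library fit from -0.39 to 0.046 for miR-106b-5p, -1.21 to 0.72 for miR-106b-3p, -0.41 to 0.18 for miR-93-5p, -0.39 to 0.16 for miR-93-3p and -0.80 to 1.24 for miR-25-3p. In the libraries numbered 1 and 2 the ranges that crossed 0 were -0.35 to 0.12 for miR-93-5p and -0.51 to 0.38 for miR-93-3p. The arm ratio ranged from -1.06 to 0.84, and was -0.70 in the libraries numbered 1 and 2. A group left with 1 library is assumed to vary like the other libraries.

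Between the libraries numbered 3 and the others, the count of 2 was 1 with total counts, where the median of all miRNAs moved from -0.11 to -0.49, and 0 to 4 without single libraries. miR-25-5p, near 0 there, was -0.33 with total counts, -0.0077 with limma-voom, -0.10 without a filter and -0.15 to 0.33 without single libraries. For the interaction the count of 1 was 1 to 2 without single libraries. With total counts the called name was miR-106b-5p (1.61, adjusted p = 0.0125, edgeR) in place of miR-106b-3p, with miR-93-3p at 0.74 and miR-25-5p at 0.52, while the median of all miRNAs moved from 0.06 to 0.998. Interaction values near 0 turned sign: miR-93-5p and miR-25-3p stood at -0.0099 and -0.041 with DESeq2 size factors and with DESeq2, at -0.24 and -0.27 with the upper quartile, and at -0.076 and -0.11 without the 10 most abundant miRNAs. Without single libraries they ranged from -0.052 to 0.34 and from -0.049 to 0.25, and miR-93-3p from -0.60 to 0.22. The fits without single libraries for the interaction, the restriction to the libraries numbered 1 and 2 for the ratio and the sum, the sign flips and the set comparison without a library numbered 3 were added after the data were examined.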
